A study of Mus musculus with 10 samples.

Results

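The genes described here are 36 genes of the type I interferon response, chosen by name as a list of interferon-stimulated and nucleic acid sensor genes. All 36 are among the 16895 genes of the deposited files, and all 36 were among the 13707 genes that passed the filter on low values and were tested. They were measured by RNA-seq in 10 bulk mouse tumors. NLS-2SA-YAP1 tumors (n = 3) were driven by RCAS-NLS-2SA-YAP1, a constitutively active form of the Hippo pathway coactivator YAP1 according to the series title. YAP1-MAML2-v2 tumors (n = 7) were driven by RCAS-YAP1-MAML2-v2, which joins YAP1 to the Notch coactivator MAML2. NLS-2SA-YAP1 replicate 1 and YAP1-MAML2-v2 replicates 2 and 6 were extra axial. NLS-2SA-YAP1 replicates 2 and 3 and YAP1-MAML2-v2 replicates 1, 3, 4 and 5 were extra cranial, and YAP1-MAML2-v2 replicate 7 was intra ventricular. The mice of both groups carried Nestin/tv-a, the avian virus receptor under Nestin control, and were Cdkn2a null. They were injected under the arachnoid at p0 to p3 with virus-producing chicken DF1 fibroblasts, so the cells that could be infected were those with Nestin promoter activity. The labels give DF1 as the cell type of every tumor, although the values are of mouse genes. They call every sample untreated, and no normal tissue was analysed here.

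Type I interferons are secreted cytokines that cells make after sensing foreign or misplaced nucleic acid. They signal through the receptor chains IFNAR1 and IFNAR2 and the kinases JAK1 and TYK2. STAT2 and IRF9 then act in the complex ISGF3, which binds the interferon-stimulated response element in the promoters of many target genes. The products include antiviral effectors, the ubiquitin-like protein ISG15, feedback inhibitors, and the sensors themselves. Type II interferon acts at the gamma-activated site and shares some targets with type I interferon. In tumors, the response can come from tumor cells, immune cells or stroma.

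Every one of the 36 genes was lowest in the same tumor, the extra axial YAP1-MAML2-v2 replicate 2, and nearly every one was highest in another extra axial tumor of the same construct, YAP1-MAML2-v2 replicate 6. Of all genes tested, 15.1% were lowest in replicate 2. Replicate 6 was the highest tumor for 33 of 36 members, against 7.53% of all genes tested. Both held for 33 members, against 2.97% of all genes tested. The remaining 3 members, IRF1, TRIM21 and SAMHD1, were highest in the extra cranial YAP1-MAML2-v2 replicate 5, with replicate 6 in the place below it. Because the tumors were bulk samples, fewer cells of a type and less RNA per cell cannot be told apart in these values.

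**Figure D1:**
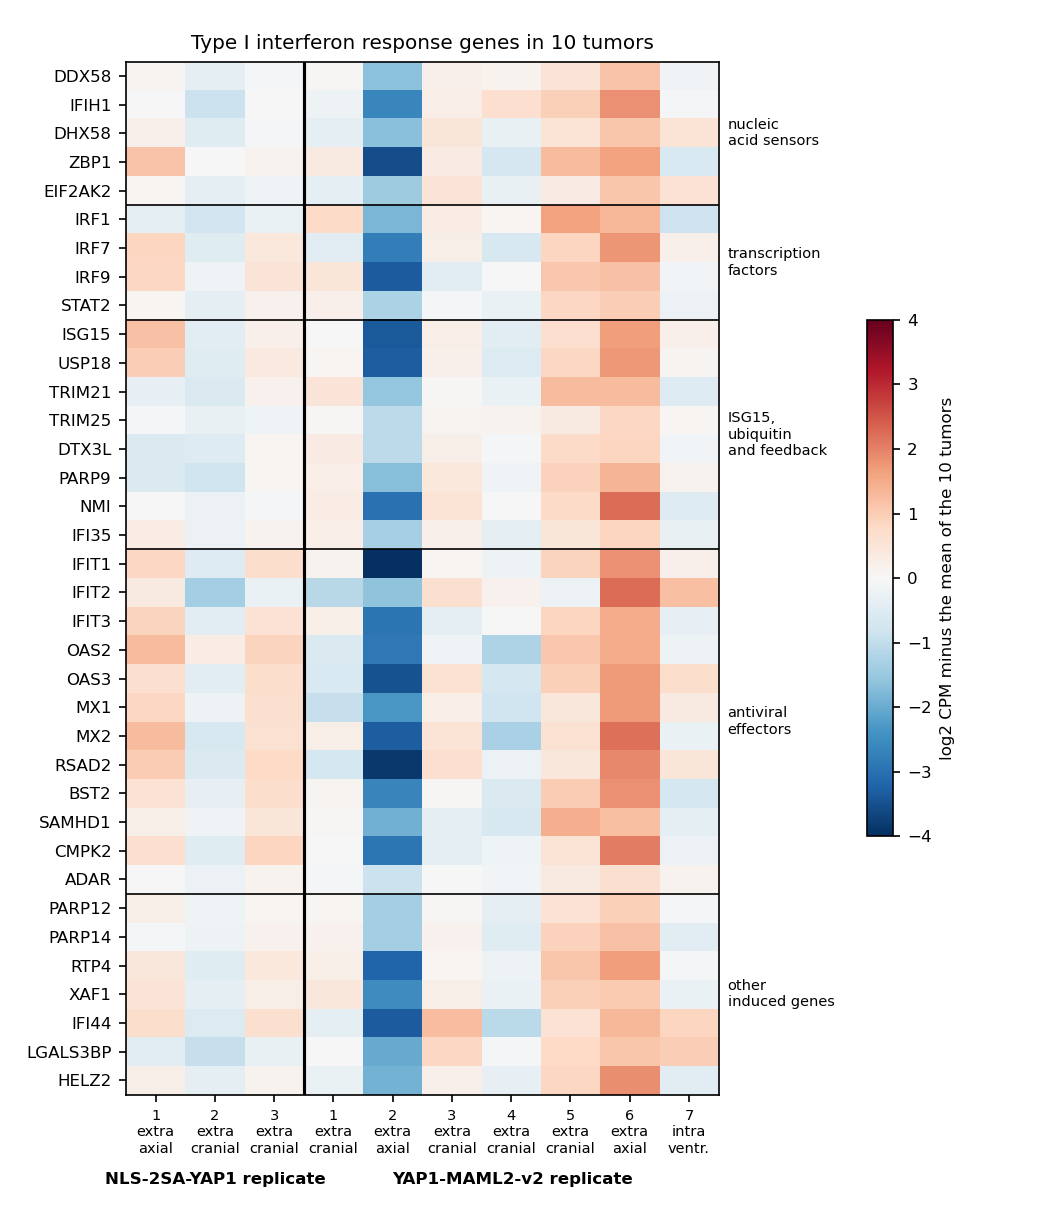
Each row is 1 of the 36 genes and each column 1 tumor. Color gives log2 CPM minus that gene's mean over the 10 tumors. Every gene has its lowest value in YAP1-MAML2-v2 replicate 2, and 33 have their highest in YAP1-MAML2-v2 replicate 6.

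Levels are given in CPM, the count of a gene scaled to a common library size, computed from the deposited values with TMM-scaled library totals. Deposited totals lay between 28001143 and 44544314 per library. Since these values are not plain read counts, the sequencing depth is unknown and counting intervals are not given. Values of the 3 NLS-2SA-YAP1 tumors always stand in the order of replicates 1, 2 and 3. The labels do not say whether each replicate came from its own mouse, and the deposited names of YAP1-MAML2-v2 replicates 6 and 7 share an identifying number that no other pair shares. P-values therefore measure the spread between these samples. Markers of meningeal fibroblasts and arachnoid (11 of 12 listed genes tested) summed to 11289 to 16736 CPM across NLS-2SA-YAP1 tumors and to 4220 to 10924 CPM across YAP1-MAML2-v2 tumors. The intra ventricular tumor stood apart in brain tissue markers, with 1197 CPM of the astrocyte gene GFAP against at most 39.9 CPM elsewhere.

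The promoters of IFIT1, IFIT3 and ISG15 are shown because they hold the response element that ISGF3 binds, and that of IRF1 because it holds a gamma-activated site in its place. Each runs from 250 bases before to 50 bases after the RefSeq transcription start (GRCm38.p6, 5′ to 3′ in the direction of the gene). Capitals mark GAAANNGAAA or its reverse complement in the first 3 sequences, where overlapping matches run together in ISG15, and TTCNNNGAA in IRF1. The windows are chr19:34640639-34640938 on the plus strand for IFIT1, chr19:34583279-34583578 on the plus strand for IFIT3, chr4:156200769-156201068 on the minus strand for ISG15 and chr11:53769764-53770063 on the plus strand for IRF1. RefSeq gives IRF1 another start downstream, whose window holds neither motif.
IFIT1: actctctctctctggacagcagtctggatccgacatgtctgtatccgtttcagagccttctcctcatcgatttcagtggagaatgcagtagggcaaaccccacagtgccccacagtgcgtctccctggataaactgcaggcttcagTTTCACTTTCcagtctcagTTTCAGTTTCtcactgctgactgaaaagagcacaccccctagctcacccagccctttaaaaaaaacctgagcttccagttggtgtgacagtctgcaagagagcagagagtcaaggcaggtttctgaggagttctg
IFIT3: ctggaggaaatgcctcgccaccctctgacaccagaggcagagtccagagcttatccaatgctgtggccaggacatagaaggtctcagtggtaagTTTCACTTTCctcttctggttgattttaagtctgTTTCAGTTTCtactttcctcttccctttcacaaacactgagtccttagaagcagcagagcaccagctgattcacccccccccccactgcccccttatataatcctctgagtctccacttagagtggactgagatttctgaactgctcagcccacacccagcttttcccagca
ISG15: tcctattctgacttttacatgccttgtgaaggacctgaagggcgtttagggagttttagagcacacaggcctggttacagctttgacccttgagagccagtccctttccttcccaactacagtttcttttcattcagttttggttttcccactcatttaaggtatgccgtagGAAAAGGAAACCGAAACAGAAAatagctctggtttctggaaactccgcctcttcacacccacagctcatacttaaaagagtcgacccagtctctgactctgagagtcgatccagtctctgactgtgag
IRF1: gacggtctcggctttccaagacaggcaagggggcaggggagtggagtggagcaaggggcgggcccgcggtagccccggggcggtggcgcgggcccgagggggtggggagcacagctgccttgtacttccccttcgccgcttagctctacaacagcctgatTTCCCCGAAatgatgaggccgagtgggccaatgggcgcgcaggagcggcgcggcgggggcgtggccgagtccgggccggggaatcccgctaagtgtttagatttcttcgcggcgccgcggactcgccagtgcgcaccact

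A promoter sequence was found for 27 of the 36 members (32 promoters). GAAANNGAAA, searched on both strands, was in the promoter of 11 members, namely BST2, DDX58, EIF2AK2, IFIH1, IFIT1, IFIT3, ISG15, OAS3, RSAD2, STAT2 and TRIM21, while 3.44% of all 32851 promoters in the table hold it. TTCNNNGAA, which reads the same on both strands, was in the promoter of 7 members, namely ADAR, BST2, EIF2AK2, IFI35, IFIT2, IRF1 and SAMHD1, against 8.3% of all promoters. A match describes the letters only. Members with GAAANNGAAA had a median ratio of YAP1-MAML2-v2 replicate 6 to replicate 2 of 22.2 (range 4.83 to 59.0). The 16 members with a sequence but no match had 10.4 (2.82 to 37.7). For TTCNNNGAA the order was reversed, with 8.82 in members with a match and 21.6 in the 20 without. Neither difference was tested.

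The size of the range between these tumors differed among members. These 2 tumors were picked out by their values, so the ratio is a description and was not tested. ZBP1 was left out of it because its deposited value was 1 in replicate 2. Across the other 35 members, CPM in YAP1-MAML2-v2 replicate 6 was 2.82 times (ADAR) to 59.0 times (RSAD2) that in replicate 2, with a median of 14.5. The median was 0.949 over the 12538 tested genes whose deposited value was above 1 in both tumors. The ratio exceeded 4 in 32 of 35 members and in 9.02% of those genes, and it exceeded 10 in 20 members and in 3.65% of those genes. Antiviral effectors had the highest median ratio of the role classes, 21.7. Transcription factors followed with 16.5, the other induced genes with 11.7, the ISG15, ubiquitin and feedback genes with 7.69, and the sensors with 6.98.

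The sensors recognise nucleic acid and start the response. EIF2AK2 encodes PKR, a kinase that stops translation on binding double-stranded RNA, and had the highest level per length of this class (mean 29.4 CPM per kilobase). It had 143, 106 and 122 CPM in the NLS-2SA-YAP1 replicates, and a lowest value of 51.2, a median of 173 and a highest of 292 CPM in YAP1-MAML2-v2 tumors. The NLS-2SA-YAP1 tumors lay inside the range of the YAP1-MAML2-v2 tumors. DDX58 encodes RIG-I and IFIH1 encodes MDA5, which are cytoplasmic RNA sensors. IFIH1 had 59.9 CPM in YAP1-MAML2-v2 replicate 6 and 2.70 CPM in replicate 2, a ratio of 22.2, and DDX58 had 81.8 CPM in replicate 6 and 11.8 CPM in replicate 2. DHX58, a helicase that modulates both, had a ratio of 7.02. ZBP1, a sensor of Z-form nucleic acid, was the least abundant member and reached 2.86 CPM at most.

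Among the transcription factors, STAT2 was the most abundant per length (mean 38.5 CPM per kilobase). It had 222, 161 and 235 CPM in the NLS-2SA-YAP1 replicates, against a lowest of 86.5, a median of 199 and a highest of 418 CPM in YAP1-MAML2-v2 tumors. IRF7, which amplifies interferon production, had 12.7, 4.99 and 9.47 CPM in the NLS-2SA-YAP1 replicates, against 0.995, 8.17 and 24 CPM as lowest, median and highest in YAP1-MAML2-v2 tumors. In both genes the YAP1-MAML2-v2 range enclosed the NLS-2SA-YAP1 values. IRF9, the DNA-binding partner in ISGF3, had a ratio of replicate 6 to replicate 2 of 28.3, with 5.92 against 0.209 CPM. IRF1 differed from the other factors in its order of tumors. It was highest in YAP1-MAML2-v2 replicate 5 with 102 CPM, and it had 84.3 CPM in replicate 6.

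ISG15 is conjugated to other proteins, and USP18 removes it and restrains receptor signaling. ISG15, the most abundant of this class per length (mean 21.3 CPM per kilobase), had 27.5, 9.08 and 14.1 CPM in the NLS-2SA-YAP1 replicates. Its lowest, median and highest values in YAP1-MAML2-v2 tumors were 1.15, 14.1 and 39.5 CPM. The medians of both groups were alike, and replicates 2 and 6 lay beyond both ends of the NLS-2SA-YAP1 values. USP18 had 7.25, 2.56 and 4.72 CPM in the NLS-2SA-YAP1 replicates, against 0.314, 3.93 and 12.1 CPM in the lowest, median and highest YAP1-MAML2-v2 tumor. PARP9 acts as a complex with the ubiquitin ligase DTX3L. It had 36, 31 and 56.4 CPM in the NLS-2SA-YAP1 replicates, against 16.6, 64.9 and 139 CPM as lowest, median and highest in YAP1-MAML2-v2 tumors. The PARP9 and DTX3L genes overlap on chromosome 16 on opposite strands (35938470 to 35972605 and 35926511 to 35939151), and no source used here gives the strand setting of the counting, so reads may be shared between them. NMI, an interferon-induced partner of IFI35, had a ratio of replicate 6 to replicate 2 of 37.7, while the ubiquitin ligase TRIM25 had 3.70.

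**Figure D2:**
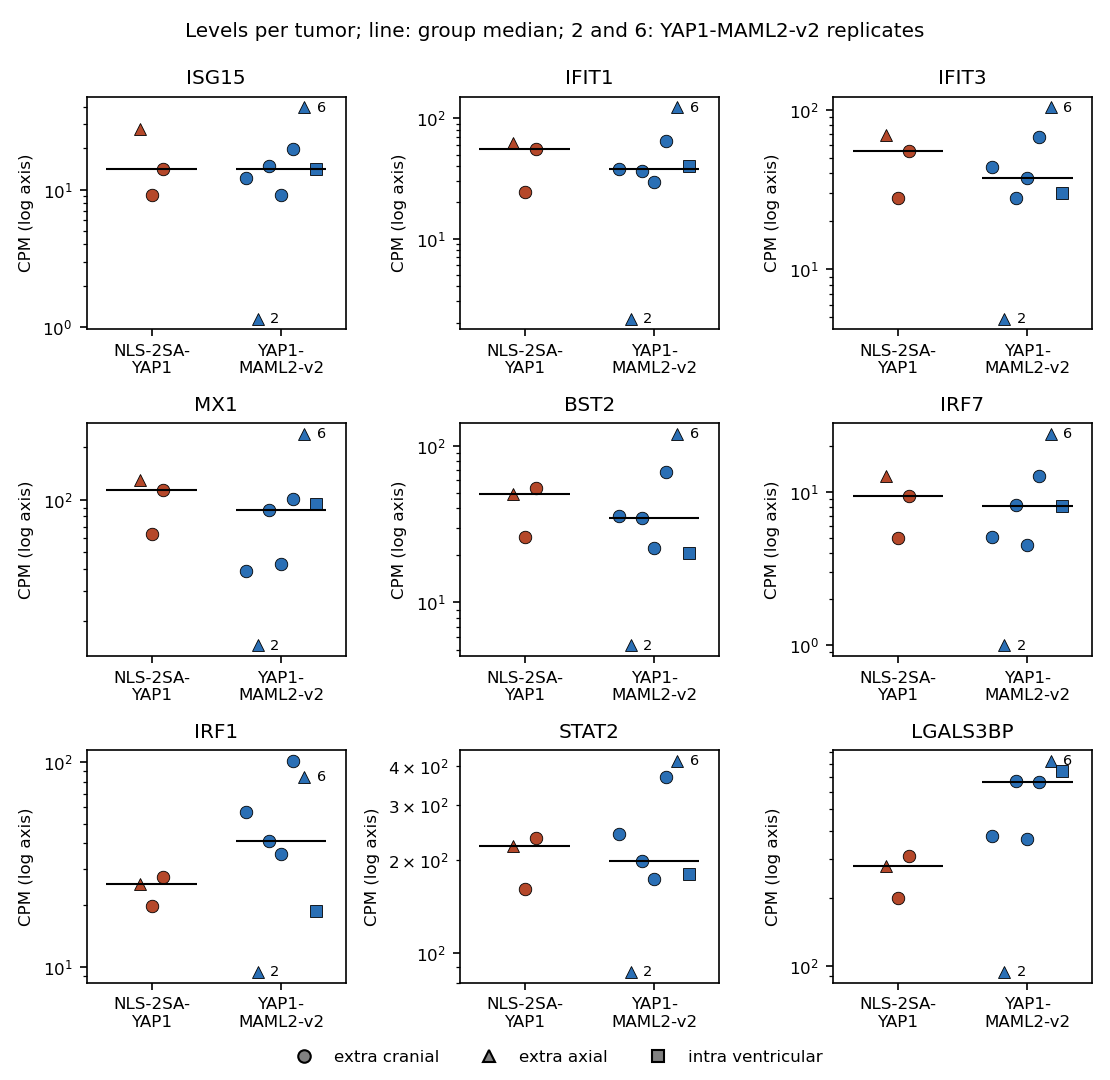
CPM on log axes for 9 members in NLS-2SA-YAP1 (n = 3) and YAP1-MAML2-v2 (n = 7) tumors. Points are tumors, shapes give the region and lines are group medians. For ISG15 the NLS-2SA-YAP1 tumors lie between 9.08 and 27.5 CPM, within the YAP1-MAML2-v2 range of 1.15 to 39.5 CPM.

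The antiviral effectors block viruses at many steps. IFIT1 and IFIT3 bind foreign RNA as partners and lie with IFIT2 in a cluster on mouse chromosome 19 (IFIT2 at 34550694 to 34576419, IFIT3 at 34583531 to 34588731 and IFIT1 at 34640871 to 34650009, mm10). IFIT1, whose promoter is shown above, had 62.0, 24.2 and 55.8 CPM in the NLS-2SA-YAP1 replicates, against a lowest of 2.15, a median of 38.2 and a highest of 123 CPM in YAP1-MAML2-v2 tumors. IFIT3 had 69.8, 28.1 and 55.5 CPM in the NLS-2SA-YAP1 replicates, against 4.90, 37.6 and 103 CPM in the lowest, median and highest YAP1-MAML2-v2 tumor. In both genes the lowest YAP1-MAML2-v2 tumor was replicate 2, and its value was under that of every NLS-2SA-YAP1 tumor. No source used here says how reads of near-identical mouse copies of these genes were counted, so their exact levels are uncertain.

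BST2, or tetherin, holds budding virus at the cell surface and had the highest level per length among the effectors (mean 48.0 CPM per kilobase). Its values were 49.3, 26.2 and 54.0 CPM in the NLS-2SA-YAP1 replicates, against 5.32, 34.3 and 118 CPM as lowest, median and highest in YAP1-MAML2-v2 tumors. MX1, a dynamin-like GTPase that traps viral nucleocapsids, had 129, 63.6 and 114 CPM in the NLS-2SA-YAP1 replicates, against 14.5, 87.7 and 238 CPM as lowest, median and highest in YAP1-MAML2-v2 tumors. MX1 and its neighbour MX2, which the GENCODE M21 annotation lists as a polymorphic pseudogene in the mouse, lie on chromosome 16. RSAD2, or viperin, had 40.2 CPM in YAP1-MAML2-v2 replicate 6 and 0.681 CPM in replicate 2, the highest ratio among members with a ratio. CMPK2, its neighbour on chromosome 12, had a ratio of 32.1. OAS2 and OAS3, which make the activator of RNase L, had ratios of 20.9 and 37.0. ADAR, which edits double-stranded RNA and was the second most abundant effector per length (42.8 CPM per kilobase), varied least, with 521 CPM in replicate 6 and 185 CPM in replicate 2. SAMHD1, which degrades deoxynucleotides, was highest in YAP1-MAML2-v2 replicate 5 with 330 CPM.

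LGALS3BP, a secreted glycoprotein that binds galectin-3, had the highest level per length of all 36 genes (mean 159 CPM per kilobase). It had 279, 200 and 309 CPM in the NLS-2SA-YAP1 replicates, against 93.6, 664 and 825 CPM as lowest, median and highest in YAP1-MAML2-v2 tumors. Replicate 2 was the only YAP1-MAML2-v2 tumor not above every NLS-2SA-YAP1 tumor, as also in TRIM25. It was picked by its low values in these genes, so this is a description only. Without it the edgeR adjusted p of LGALS3BP between constructs was 0.295. The apoptosis-linked gene XAF1 had a ratio of replicate 6 to replicate 2 of 11.7, RTP4 of 33.5, IFI44 of 25.8, the helicase gene HELZ2 of 13.5, and the ADP-ribosyltransferase genes PARP12 and PARP14 of 4.92 and 5.70.

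Agreement on the order of the tumors held across role classes. Kendall's W is 1 when all genes order the tumors alike and falls toward 0 when many genes share no order. It was 0.734 for the 36 members and 0.000519 for all genes tested. Unrelated genes give a higher W in a short list than in a long one. The value for all genes is therefore no baseline, and lists of different length are not directly comparable. Within classes it was 0.769 for sensors, 0.830 for transcription factors, 0.777 for ISG15, ubiquitin and feedback genes, 0.794 for effectors and 0.787 for the other induced genes. Without YAP1-MAML2-v2 replicates 2 and 6 it was 0.484 for the members and 0.000366 for all genes. A high W was not particular to the members. Over all 10 tumors it was 0.818 for T, B and NK lymphocyte markers, 0.754 for skeletal muscle markers and 0.713 for type II interferon targets. For the remaining gene lists tested it lay between 0.0642 (neutrophil markers) and 0.555 (endothelial markers). W is a description of these 10 tumors and was not tested.

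**Figure D3:**
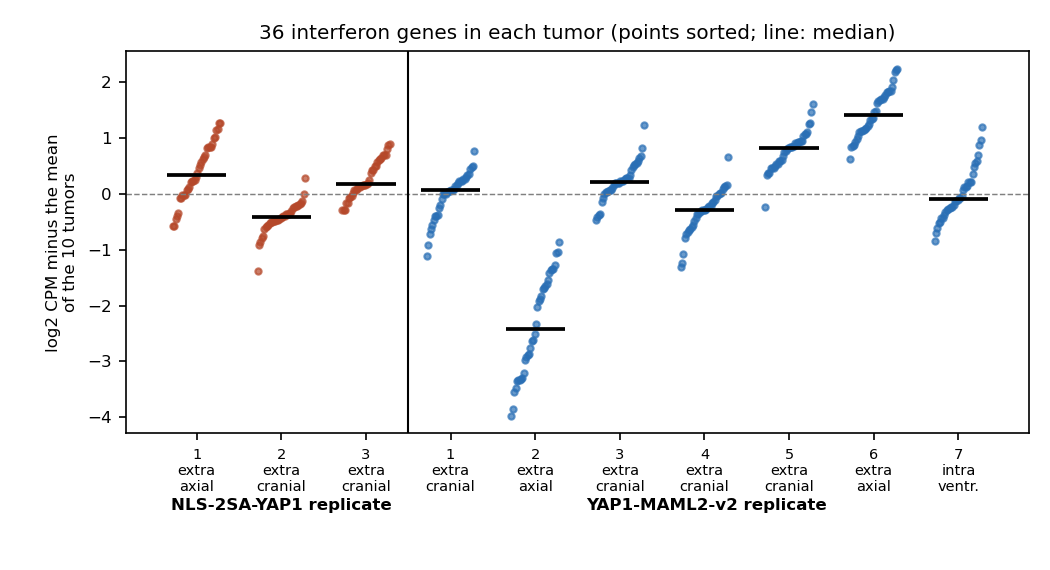
Points are the 36 genes in each tumor, as log2 CPM minus the gene's mean over the 10 tumors, sorted within a tumor. Lines are medians. All 36 points of YAP1-MAML2-v2 replicate 6 lie above 0 with a median of 1.42, and all of replicate 2 lie below 0 with a median of -2.42.

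The other 8 tumors formed a graded order with exceptions. The median difference of the members from their 10-tumor mean, on the log2 CPM scale, was 0.83 in YAP1-MAML2-v2 replicate 5, which was among the 3 highest tumors for 29 members. It was -0.42 in NLS-2SA-YAP1 replicate 2, which was among the 3 lowest for 28 members, and -0.28 in YAP1-MAML2-v2 replicate 4, among the 3 lowest for 19. NLS-2SA-YAP1 replicates 1 and 3 had medians of 0.33 and 0.17, and YAP1-MAML2-v2 replicates 1, 3 and 7 had 0.06, 0.21 and -0.09. Effectors stood higher than sensors in NLS-2SA-YAP1 replicate 1 (medians of 0.74 and 0.12) and in NLS-2SA-YAP1 replicate 3 (0.66 and -0.03). IFIT2 departed from the common order in several tumors. Of the 36 members it stood lowest in NLS-2SA-YAP1 replicate 2, at -1.37, and in YAP1-MAML2-v2 replicate 1, at -1.12. It was below its own mean in YAP1-MAML2-v2 replicate 5, at -0.24, where every other member was above, and in the intra ventricular tumor it stood at 1.20, the highest of the 36 there.

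The first comparison asked whether the response differed between constructs. No member passed edgeR's quasi-likelihood test with construct and region as terms, as 0 of 36 members were called, against 0.0146% of all genes tested. At an unadjusted p under 0.05, 0 members passed with edgeR, against 13.1% of all genes. The other tools also called 0 members, against 5% of all genes with DESeq2, 0.671% with limma-voom and 0.0438% with limma-trend. Fold changes were above 0 for 6 members (OAS2, IFIT3, RSAD2, CMPK2, MX1 and IRF9) and below 0 for 30, while 48.4% of all genes lay above 0. On the same libraries limma-voom put 15 members above 0 and 21 below (51.7% of all genes above), and limma-trend put 20 above and 16 below (53.4% of all genes above). The median log2 fold change, NLS-2SA-YAP1 minus YAP1-MAML2-v2, was -0.13 for members and -0.03 for all genes by edgeR. The groups overlapped in 36 of 36 members, while 6.73% of all genes had groups without overlap. This overlap follows from the order above, as every member had both its lowest and its highest value in a YAP1-MAML2-v2 tumor. It is no separate result on construct.

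The members with the smallest edgeR p between constructs were IRF1, LGALS3BP and PARP9. IRF1 had 25.5, 19.7 and 27.5 CPM in the NLS-2SA-YAP1 replicates, against 9.40, 40.9 and 102 CPM as lowest, median and highest in YAP1-MAML2-v2 tumors, and the groups overlapped through YAP1-MAML2-v2 replicates 2 and 7. The fold change of IRF1 was -1.17 on the log2 scale (SE 0.63) with an edgeR adjusted p of 0.469. LGALS3BP had -0.92 (SE 0.60, edgeR adjusted p = 0.547) and PARP9 -0.85 (SE 0.58, edgeR adjusted p = 0.573). None of these differences exceeded the spread between tumors by this test. Without YAP1-MAML2-v2 replicate 6 the log2 fold change was -0.60 for IRF1, -0.35 for LGALS3BP and -0.23 for PARP9. An exact two-sided permutation test of the CPM difference gave LGALS3BP the smallest p among members, 0.167, or 0.558 adjusted over all genes tested. The smallest p that 3 against 7 tumors allows is 0.0167.

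The median between constructs rested on single tumors, of which YAP1-MAML2-v2 replicates 2 and 6 were picked by their values. Without YAP1-MAML2-v2 replicate 6 it was 0.40, with 29 of 36 members above 0 (48.6% of all genes) and 0 at an unadjusted p under 0.05 (11.2% of all genes). Without YAP1-MAML2-v2 replicate 2 it was -0.41, with 34 of 36 below 0 where 47% of all genes were above 0, and 6 members had an unadjusted edgeR p under 0.05, against 12.8% of all genes. It also turned above 0 without NLS-2SA-YAP1 replicate 2, at 0.02, and without YAP1-MAML2-v2 replicate 5, at 0.0037. In each of these fits edgeR called 0 members, and of all genes tested it called 1 without YAP1-MAML2-v2 replicate 5 and 0 in the others.

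The second comparison set extra axial tumors (n = 3) against extra cranial tumors (n = 6). Here too edgeR called 0 of 36 members, against 0% of all genes tested, and 0 had an unadjusted p under 0.05, against 3.01% of all genes. DESeq2, limma-voom and limma-trend each called 0 members, against 0.226% of all genes with DESeq2 and 0% with the others. The fold change, extra axial minus extra cranial, was above 0 for 31 members, against 49.4% of all genes, and below 0 for LGALS3BP, IRF1, TRIM21, PARP9 and DTX3L. The median log2 fold change was 0.31 for members and -0.01 for all genes. Regions overlapped in 36 of 36 members, while 0.89% of all genes had regions without overlap. In 33 members the extra axial values reached beyond both ends of the extra cranial range. Both counts follow from the order above, as YAP1-MAML2-v2 replicates 2 and 6 were both extra axial. They are no separate result on region.

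IFIT2, MX2 and MX1 had the smallest edgeR p between regions. IFIT2, which can promote apoptosis, had 27.8 CPM in NLS-2SA-YAP1 replicate 1 and 7.04 and 102 CPM in YAP1-MAML2-v2 replicates 2 and 6, all extra axial. Its lowest, median and highest values in extra cranial tumors were 8.30, 18.0 and 33.5 CPM, so extra axial tumors lay below, within and above that range. The log2 fold change of IFIT2 was 1.27 (SE 0.67, edgeR adjusted p = 1). MX2 had 19.9, 0.786 and 37.6 CPM in the extra axial tumors in the same order, against 3.29, 10.9 and 12.6 CPM as lowest, median and highest in extra cranial tumors. On the log2 scale the fold change was 1.07 (SE 0.87) for MX2 and 0.79 (SE 0.68) for MX1, both with an edgeR adjusted p of 1. By exact two-sided permutation MX2 and ISG15 had the smallest p among members, 0.310 each, where 3 against 6 tumors allow 0.0238 at the least, and both had a p of 1 adjusted over all genes tested.

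**Figure D4:**
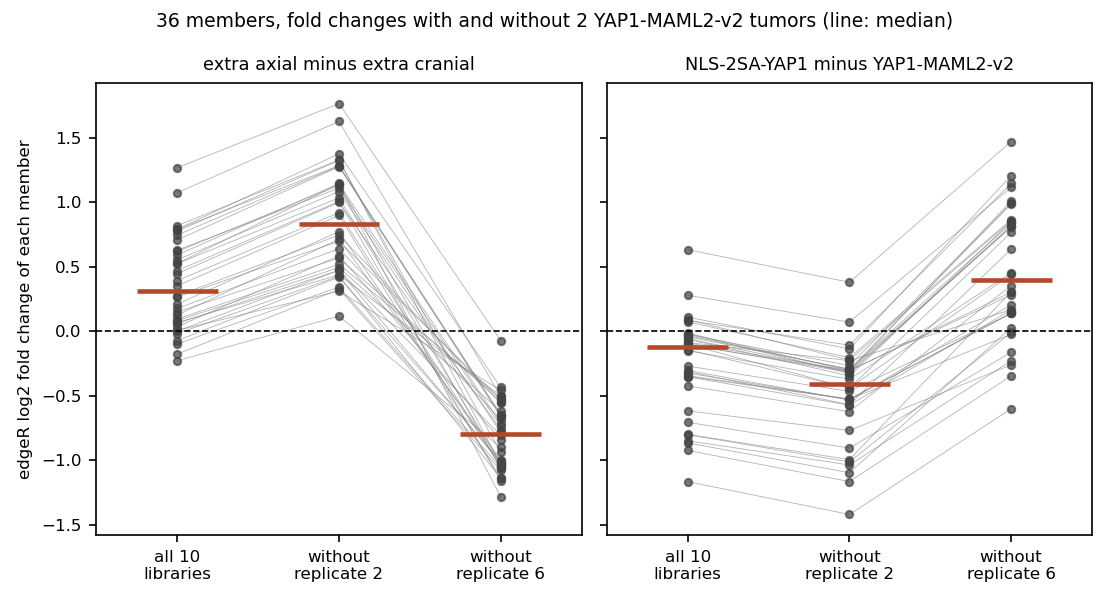
Points are the edgeR log2 fold changes of the 36 members between regions (left) and constructs (right), from all 10 libraries and without YAP1-MAML2-v2 replicate 2 or 6. Grey lines join a member and red lines are medians. Between regions all 36 lie above 0 without replicate 2 (median 0.83) and below 0 without replicate 6 (median -0.80).

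Leaving out either extreme tumor gave opposite directions between regions. Both tumors were extra axial and were picked by their values in these genes. The directions without either of them largely follow from the order above. Neither these directions nor the counts at an unadjusted p are a separate result on region. Without YAP1-MAML2-v2 replicate 2, 36 of 36 members were above 0 (47.8% of all genes), with a median log2 fold change of 0.83. Of these, 11 had an unadjusted edgeR p under 0.05 (3.11% of all genes), and 0 were called. Without YAP1-MAML2-v2 replicate 6, 36 of 36 were below 0, where 49.6% of all genes were above 0, with a median of -0.80, and 0 were called, with 0 at an unadjusted edgeR p under 0.05 (3.85% of all genes). On all 10 libraries limma-trend gave a median of -0.25 with 32 of 36 below 0 (48.6% of all genes above), and limma-voom gave 0.08 with 26 of 36 above 0 (48.3% of all genes above).

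The interaction of construct and region, in the 9 tumors outside the ventricle, was called by edgeR for 0 of 36 members, against 0.00741% of all genes tested. At an unadjusted p under 0.05 it passed for 0 members, against 7.14% of all genes, and DESeq2, limma-voom and limma-trend each called 0 members (1.51%, 0% and 0.0297% of all genes). Its median was 0.11, with 23 of 36 members above 0, against 48.8% of all genes. NLS-2SA-YAP1 had 1 extra axial tumor, so this term rests on that tumor. By limma-voom the median was 0.97 and by limma-trend 0.93, each with 36 of 36 members above 0 (50.4% and 50.1% of all genes). Without YAP1-MAML2-v2 replicate 2 the edgeR median was -0.72, with 34 of 36 members below 0 where 54% of all genes were above 0, and 0 members were at an unadjusted p under 0.05 (5.36% of all genes). Without YAP1-MAML2-v2 replicate 6 the median was 3.03, with 36 of 36 members above 0 (54.4% of all genes) and 27 at an unadjusted p under 0.05 (8.74% of all genes), and 0 called.

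Transcripts of the interferons themselves were listed at low values or at 0. A listed 0 need not be a low level in these data, as described under the processing. No source used here says how mouse genes were carried to human-style symbols. Whether interferon transcripts were truly scarce in the tumors can therefore not be decided from these values. Of 11 ligand genes on the list, 8 of them type I, none passed the filter and 7 were listed at 0 in every tumor. IFNB1, which encodes interferon beta, had a deposited value of at most 2. IFNG, the type II interferon, reached 0.297 CPM in YAP1-MAML2-v2 replicate 5 and 0.197 CPM in replicate 6, and it had at most 0.0892 CPM in the other tumors.

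The receptor chains are shared by all type I interferons. IFNAR1 had 75.6, 234 and 192 CPM in the NLS-2SA-YAP1 replicates, against a lowest of 91.5, a median of 116 and a highest of 194 CPM in YAP1-MAML2-v2 tumors, and YAP1-MAML2-v2 replicates 6 and 2 had 162 and 113 CPM. IFNAR2 was lowest in YAP1-MAML2-v2 replicate 2, with 17 CPM, and highest in replicate 5, with 55.8 CPM. Of all genes tested, 15.1% were lowest in replicate 2 and 7.53% highest in replicate 6. Of the 9 receptor, JAK and STAT genes, 7 were lowest in replicate 2 and 1 was highest in replicate 6. SOCS1, an inhibitor of JAK kinases that interferon induces, had 4.13 CPM in replicate 6 and 0.0786 CPM in replicate 2. Of 7 inhibitors, 4 were lowest in replicate 2 and 2 highest in replicate 6, and of 12 tested adaptors and upstream genes 7 and 2.

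Other interferon targets shared the order in part, beside the shares of 15.1% lowest in YAP1-MAML2-v2 replicate 2 and 7.53% highest in replicate 6 over all genes. Of 23 further induced genes tested, 17 were lowest in replicate 2 and 16 highest in replicate 6, with a median difference from the 10-tumor mean of 0.99 in replicate 6 and -1.68 in replicate 2 (log2 CPM). Of 14 targets of type II interferon, 13 were lowest in replicate 2 and 7 highest in replicate 6, with medians of 1.27 in replicate 6 and -2.64 in replicate 2, and replicate 5 had a median of 1.39. CXCL10, a chemokine that both interferon types induce, had 17.4, 6.97 and 19.7 CPM in the NLS-2SA-YAP1 replicates. In YAP1-MAML2-v2 tumors it had 0.105, 5.50 and 23.8 CPM as lowest, median and highest, again in replicates 2 and 6 at the ends. No gene of any of these lists was called between constructs or between regions by edgeR, and the smallest adjusted p was 0.228.

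**Figure D5:**
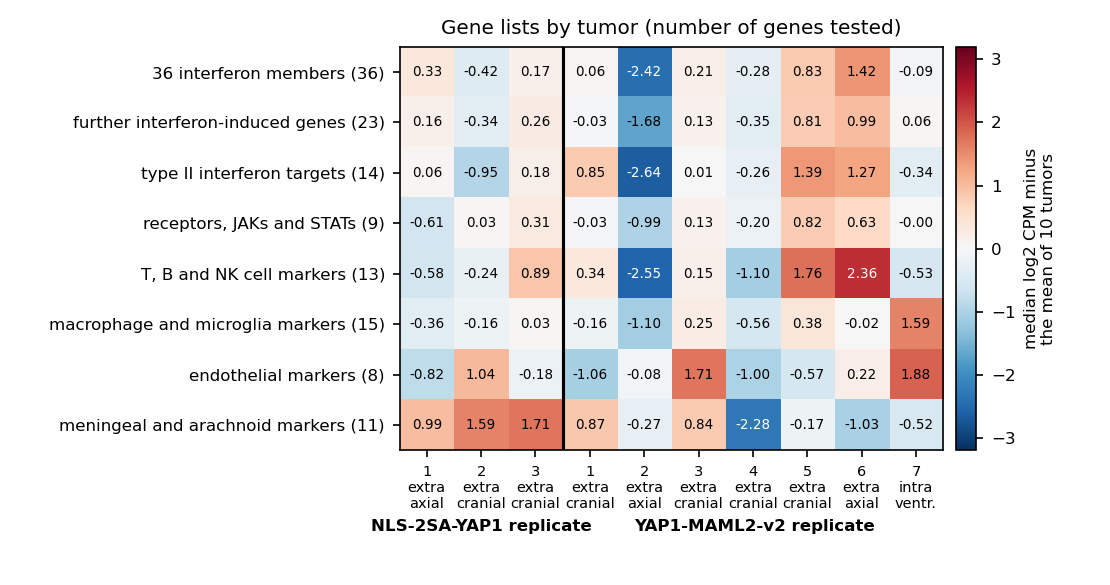
Rows are gene lists with the number of genes tested, and columns are tumors. Color and number give the list's median of log2 CPM minus each gene's mean over the 10 tumors. Lymphocyte markers have 2.36 in YAP1-MAML2-v2 replicate 6 and -2.55 in replicate 2, beside 1.42 and -2.42 for the 36 members.

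Markers of lymphocytes shared both ends of the members' order. Of 13 tested T, B and NK cell markers, 11 were lowest in YAP1-MAML2-v2 replicate 2 and 11 highest in replicate 6. Of all genes tested, 15.1% and 7.53% were. Between the ends they departed from the members. The markers' median difference from the 10-tumor mean was -0.58 in NLS-2SA-YAP1 replicate 1, where the members had 0.33 (log2 CPM). In NLS-2SA-YAP1 replicate 3 it was 0.89, where the members had 0.17. The summed level of these markers was 61.5 to 139 CPM among NLS-2SA-YAP1 tumors and 17.4 to 266 CPM among YAP1-MAML2-v2 tumors, most of it CD4. The T cell gene CD3E had 11.1 CPM in replicate 6 and 0.209 CPM in replicate 2, and the B cell gene CD79A was listed at 0 in replicate 2. PTPRC, the pan-leukocyte gene for CD45, had 23, 46.7 and 90.6 CPM in the NLS-2SA-YAP1 replicates, against 12.8, 87.6 and 204 CPM as lowest, median and highest in YAP1-MAML2-v2 tumors, with replicates 2 and 6 at the ends. The part of lymphocytes in the members' values was not tested.

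Markers of macrophages and microglia followed the members at the low end but not at the high end. Of 15 tested, 8 were lowest in YAP1-MAML2-v2 replicate 2 and 1 was highest in replicate 6. Of all genes tested, 15.1% were lowest in replicate 2 and 7.53% highest in replicate 6. The markers' median difference from the 10-tumor mean was -1.10 in replicate 2 and -0.02 in replicate 6 (log2 CPM). Their sum was 891 to 1412 CPM among NLS-2SA-YAP1 tumors and 707 to 3596 CPM among YAP1-MAML2-v2 tumors. It was highest in the intra ventricular tumor, where the members' median difference was -0.09. CD68 was near 0 in every tumor (at most 0.659 CPM) although the complement gene C1QA of the same cells had 64.5 to 496 CPM. Endothelial markers were lowest in replicate 2 for 1 of 8 genes and highest in replicate 6 for 0 of 8, and meningeal markers for 1 and 1 of 11. The part of these cells in the members' values was not tested.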

How the data were processed

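RNA from ground frozen tumors was made into stranded mRNA libraries, per the labels' protocols, and counted with HTSeq against mm10, per the submitters' processing notes, which give no version. The values the authors deposited, whole numbers under human-style gene symbols, were treated as estimated counts, because in every library the genes at 1 outnumber those at 2 by 4.54 to 6.82 times. They are whole already and were not rounded further, so the count test planned for plain counts was kept. The 10505 genes with a median deposited value over 200 held 251 values of 0, 219 of 1 and 21 of 2. A listed 0 or 1 therefore need not be a low level, and the origin of these values was not tested. No source used here gives the aligner, the annotation or the strand setting. Ignoring case, 15475 symbols (91.6%) matched GENCODE M21, which gave coordinates.

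Genes were kept with filterByExpr by construct (minimum count 10). Differences were tested by robust quasi-likelihood in edgeR 4.0.16 under R 4.3.3 after TMM scaling, with construct and region as terms over 10 libraries, Benjamini-Hochberg adjustment over all genes tested and a threshold of 0.05. The intra ventricular library is fitted by its own term. Log2 CPM used a prior count of 2. Alternatives were DESeq2 1.42.0, limma 3.58.1 (voom with sample quality weights, and trend), RLE size factors, no filter, subsets of libraries, a replicate block and leaving out each library. Steps were tested on simulated counts.

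Members and lists were chosen with earlier results of these data known. Values by library are given for 7 chosen members, the member of highest CPM per kilobase in each class, and the 3 of smallest edgeR p in each comparison. Of the other lists, the ligands, receptors, SOCS1, CXCL10, PTPRC and CD68 were set to be named, and 1 further gene so set is not reported here. GFAP, CD3E, CD79A and C1QA were chosen after their values were seen.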

Additional observations from a re-analysis of the deposited data

Results flagged for a closer look

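Dixon's test on the log2 CPM of each member within the 7 YAP1-MAML2-v2 tumors and within the 6 extra cranial tumors (72 groups) set 1 tumor apart in 8 groups, and each time it was the low value of YAP1-MAML2-v2 replicate 2. Chance alone sets about 1 in 20 groups apart, and the members are not independent. The values were 0.209 CPM for IRF9, 1.15 CPM for ISG15, 29.6 CPM for TRIM25, 2.15 CPM for IFIT1, 4.90 CPM for IFIT3, 0.367 CPM for RTP4, 9.40 CPM for XAF1 and 93.6 CPM for LGALS3BP. In each of these genes the gap to the nearest YAP1-MAML2-v2 tumor on the log2 CPM scale exceeded 0.568 of the range of that group.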

How the results depend on the processing

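In every alternative run (edgeR, DESeq2 or limma) the test called 0 members between constructs, between regions and for the interaction. At an unadjusted p under 0.05 there were 0 to 6 members between constructs and 0 to 11 between regions. Of all genes, 13.1% and 3.01% passed that threshold in the edgeR fits of all 10 libraries. Without YAP1-MAML2-v2 replicate 2, where both upper counts arose, 12.8% and 3.11% of all genes did. The interaction rests on 1 NLS-2SA-YAP1 extra axial tumor, and its median over members ranged from -0.72 to 3.03. Kendall's W stayed between 0.634 and 0.786, and with RLE size factors or a prior count of 0.5, 36 members were lowest in YAP1-MAML2-v2 replicate 2 and 33 highest in replicate 6. Without ZBP1, which has a value of 1, these were 35 of 35 and 32 of 35. The median log2 fold change between constructs (-0.13) ranged from -0.41 to 0.40 without 1 library and was 0.11 by limma-trend. Between regions the median (0.31) ranged from -0.80 to 0.83 without 1 library and was -0.25 by limma-trend. Without 1 library IFIT2 ranged from -0.073 to 1.76, MX2 from -0.50 to 1.63 and MX1 from -0.65 to 1.28 between regions. The replicate numbers are shared by both constructs, and whether they pair the tumors was not settled. Deviations from the construct means correlated at 0.167, 0.337 and -0.07 for numbers 1, 2 and 3. Only for number 2 was the same-numbered YAP1-MAML2-v2 tumor the closest to the NLS-2SA-YAP1 tumor. The replicate block was fitted only on replicates 1 to 3 of each construct, so YAP1-MAML2-v2 replicate 6 was among the tumors left out. With this block the median between constructs was 0.68, or 0.70 with the region term. Between regions it was -0.81, with MX2 at -0.85 and MX1 at -0.20. With that block and the region term IRF1 was at -0.23, LGALS3BP at -0.15 and PARP9 at -0.10 between constructs. The interaction could not be fitted without NLS-2SA-YAP1 replicate 1. The cause of these reversals was not tested. Depth is unknown, so no detection limits are given.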
